A study of Mus musculus with 8 samples.

Results

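The imprinted genes of the newborn hybrid brain were followed as a set of 47 genes, chosen by name from known imprinted clusters and matched by Ensembl identifier to the 49585 rows of the count table of the B genome (C57BL/6J). All 47 were found, in 20 clusters, and none had more than 1 identifier. Counts came from the brain of 1 female pup each of a cross of a C57BL/6J mother and a CAST/EiJ father (B × C), 4 whose mothers drank water with 0 ppm Cd and 4 whose mothers drank water with 50 ppm Cd in the form of CdCl2 before mating and through pregnancy. The pups carry no transgene or deletion, are labelled postnatal day 1 and were collected within 24 h of birth, and each came from a different litter. The question put to these data was whether maternal Cd goes along with different RNA levels of imprinted genes, and how much these genes vary from pup to pup.

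Imprinted genes are transcribed mainly from the copy inherited from 1 parent, under the control of regions whose DNA methylation is set differently in egg and sperm. They lie in clusters in which a long non-coding RNA expressed from 1 copy is often paired with protein-coding genes expressed from the other. Many of them control fetal growth, and in the brain several are known for roles in the hypothalamus, in feeding and in maternal behavior. The counts used here sum both parental copies, so they measure the level of each gene and not which copy was transcribed.

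Total counts lay between 22916434 and 30708087 per library, and 3 counts made between 0.098 and 0.132 CPM, the unit of level used here, in which each count is divided by its library's total after TMM adjustment. The neuron markers summed to between 4276 and 4959 CPM, which goes with the label of brain, but *Tubb3*, a neuronal tubulin, is listed at 0 in every library beside them. Of the 47 imprinted genes, 43 passed the filter and were tested, and 40 had a mean of at least 1 CPM. *Snurf*, *Mkrn3*, *Mcts2* and *Peg13* are listed at 0 in all 8 libraries. Each exon base of *Snurf* is shared on the same strand with *Snrpn* and *Gm38393* in the annotation, while the other 3 share no exon base with another gene, and the reason for their zeros was not tested. Since *Tubb3* is also at 0, these zeros are not read as absence of the RNA.

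Some of the members are the hosts of microRNAs, whose mature sequences are shown because 3 of the hosts discussed first carry them. The sequences are from RefSeq on GRCm38.p6 and run 5′ to 3′, with the seed (bases 2 to 8) in capitals. The hairpin of miR-675 lies in *H19*, that of miR-483 in *Igf2* and that of miR-335 in *Mest*.
miR-675-5p (chromosome 7, 142577112 to 142577133, minus strand): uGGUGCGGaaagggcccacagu
miR-675-3p (chromosome 7, 142577078 to 142577099, minus strand): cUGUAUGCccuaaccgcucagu
miR-483-5p (chromosome 7, 142654968 to 142654989, minus strand): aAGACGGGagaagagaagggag
miR-483-3p (chromosome 7, 142654932 to 142654952, minus strand): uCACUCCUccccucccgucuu
miR-335-5p (chromosome 6, 30741314 to 30741336, plus strand): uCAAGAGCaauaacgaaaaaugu
miR-335-3p (chromosome 6, 30741354 to 30741375, plus strand): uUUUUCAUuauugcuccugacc
No seed is shared among these 6. The libraries were made from poly(A) RNA, so the counts below measure the host transcripts and not the mature microRNAs.

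None of the 43 tested members passed the adjusted p threshold of 0.05 (edgeR quasi-likelihood test with Benjamini-Hochberg adjustment over all 23113 genes), and every adjusted p was 0.999. Over all genes the same test called 4, or 0.0173%. DESeq2 also called none of the 43 members, beside 18 of all genes. At an unadjusted p under 0.05 there were 5 members, 3 higher and 2 lower at 50 ppm, which is 11.6% of the members beside 3.75% of all genes. DESeq2 gave 4 of these 5 at that level, all but *H19*, beside 2.81% of all genes. The number was 2 without 50 ppm replicate 1 (beside 3.9% of all genes) or without 50 ppm replicate 4 (3.2%). It was 3 without 0 ppm replicate 3 (5.08%). The 5 are *H19*, *Igf2*, *Mest*, *Plagl1* and *Kcnq1ot1*, and because none passed the adjustment their differences are given below as values.

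**Figure D1:**
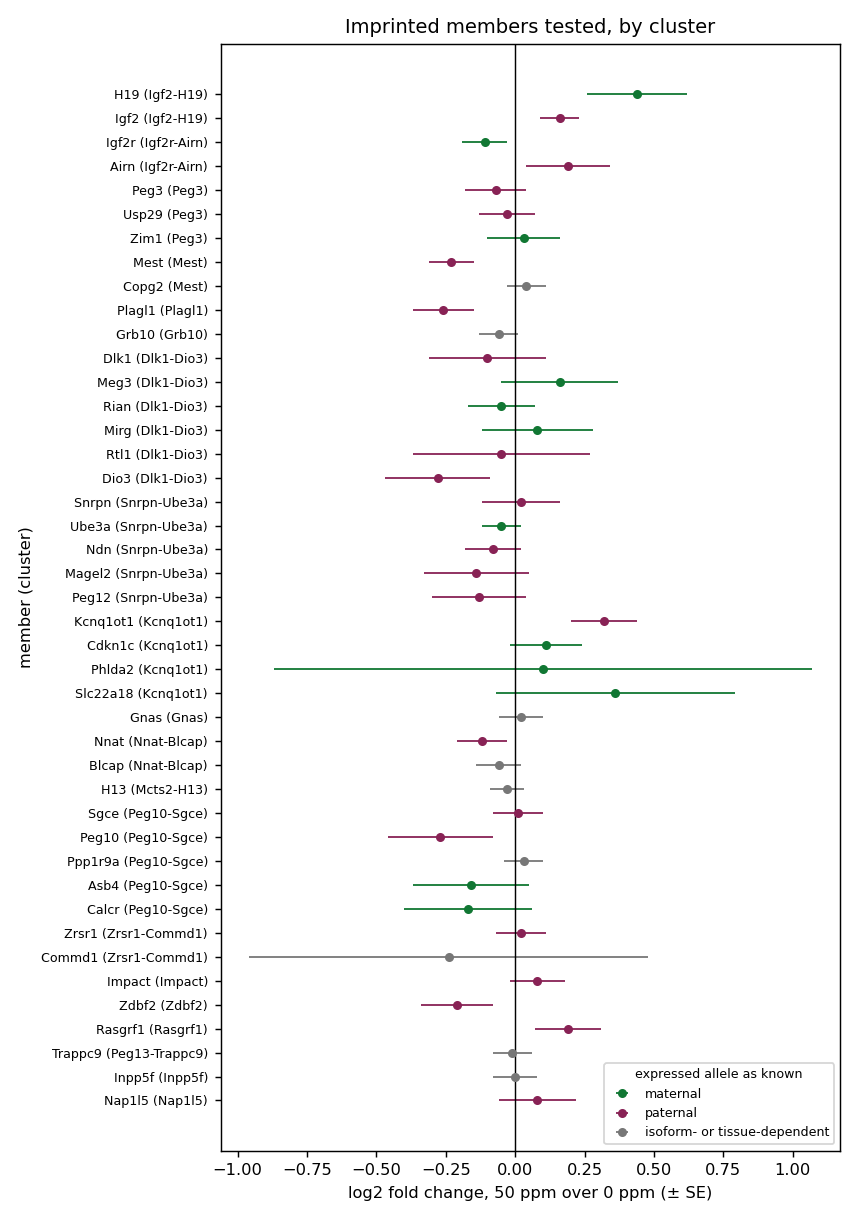
Log2 fold change (50 ppm over 0 ppm) with its standard error for the 43 tested members, in cluster order and colored by the allele known to be expressed. The values lie between -0.28 and 0.44, and the widest error bars belong to *Phlda2* and *Commd1*, which had at most 8 counts in a library.

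*H19*, a maternally expressed long non-coding RNA at the *Igf2* locus, was at 62.0, 118, 142 and 121 CPM in 0 ppm replicates 1 to 4 and at 156, 112, 183 and 149 CPM in 50 ppm replicates 1 to 4. The doses overlapped, and 0 ppm replicate 1 was the lowest of the 8. The log2 fold change was 0.44 with a standard error of 0.18 (edgeR unadjusted p = 0.0243). Without 0 ppm replicate 1 it was 0.24. With the summed level of brainstem and spinal cord markers as a covariate, a fit chosen after the data were seen, it was 0.03 with a standard error of 0.19 (edgeR unadjusted p = 0.888).

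*Igf2* encodes a fetal growth factor and is expressed from the paternal copy in most tissues, but from both copies in the choroid plexus and meninges. It was at 357, 382, 373 and 337 CPM in the 0 ppm replicates and at 422, 391, 389 and 423 CPM in the 50 ppm replicates. All exposed pups lay above all control pups, and it was the only member of the 43 whose doses did not overlap. Over all genes, 2.09% did not overlap in 1 direction or the other. The mean was 12.1% higher at 50 ppm, a log2 fold change of 0.16 with a standard error of 0.07 (edgeR unadjusted p = 0.0211). The exact two-sided permutation test gave p = 0.0286, the smallest p that 4 against 4 allows, and 1 after Benjamini-Hochberg adjustment over the 43 members.

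*Mest*, a paternally expressed gene of the hydrolase fold family, was at 82.7, 76.3, 94.0 and 82.5 CPM in the 0 ppm replicates and at 63.9, 76.4, 75.4 and 70.5 CPM in the 50 ppm replicates. The doses overlapped only through 0 ppm replicate 2 and 50 ppm replicate 2. The log2 fold change was -0.23 with a standard error of 0.08 (edgeR unadjusted p = 0.0113). In the annotation 23.1% of the exon bases of *Mest* lie opposite exons of its convergent neighbor *Copg2*. *Copg2*, a coat protein subunit of vesicle transport, lay between 82.2 and 91.1 CPM in the controls and between 83.3 and 93.0 CPM in the exposed pups.

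*Plagl1*, a paternally expressed zinc finger transcription factor, was at 56.7, 75.3, 81.7 and 71.4 CPM in the 0 ppm replicates and at 50.3, 57.4, 64.6 and 66.3 CPM in the 50 ppm replicates. The doses overlapped because 0 ppm replicate 1 was lower than 3 of the 4 exposed libraries. The log2 fold change was -0.26 with a standard error of 0.11 (edgeR unadjusted p = 0.0252).

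*Kcnq1ot1*, the paternally expressed long non-coding RNA that silences its cluster in cis, was at 12.5, 10.8, 10.9 and 11.5 CPM in the 0 ppm replicates and at 14.7, 11.1, 14.9 and 16.1 CPM in the 50 ppm replicates. Only 50 ppm replicate 2 lay within the range of the controls. The log2 fold change was 0.32 with a standard error of 0.12 (edgeR unadjusted p = 0.02).

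**Figure D2:**
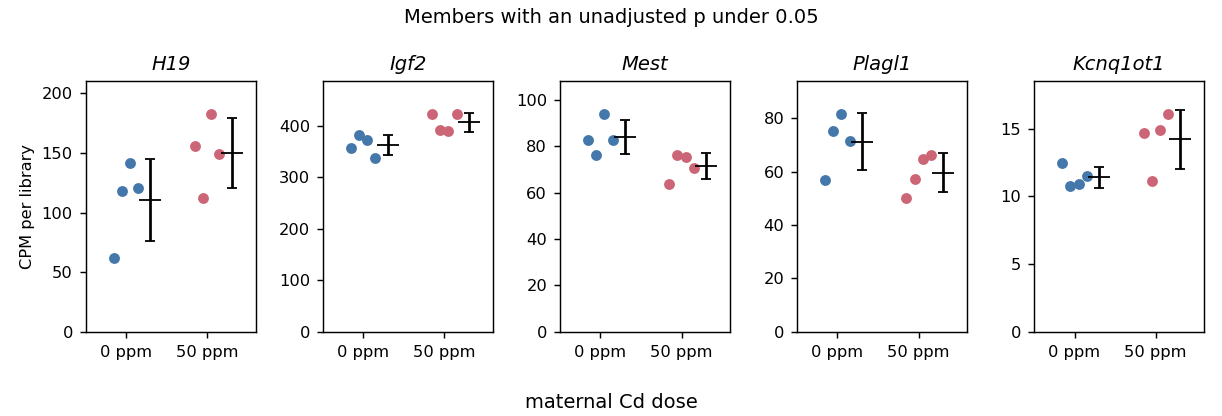
CPM in each library for the 5 members with an unadjusted p under 0.05, by maternal Cd dose, with the mean and SD of the 4 libraries of each dose beside the points. The doses overlap for all of them except *Igf2*, whose controls reach 382 CPM and whose exposed libraries start at 389 CPM.

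Of the 47 members, *Igf2* and *Mest* could also be paired with identifiers of the C genome (CAST/EiJ). In that alignment of the same reads *Igf2* lay between 380.3 and 429.5 CPM in the controls and between 441 and 482 CPM in the exposed pups, with a log2 fold change of 0.18 (SE 0.06). *Mest* lay between 73.0 and 88.2 CPM in the controls and between 60.2 and 71.1 CPM in the exposed pups, with a log2 fold change of -0.24 (SE 0.08). Here the doses did not overlap for either gene, but the share of all genes without overlap in this alignment was not computed. Neither passed the adjusted p threshold (edgeR, adjusted p = 0.999 for both), which 0.0101% of the 19847 genes of that alignment did. The C genome took 0.83 times as many reads as the B genome for *Mest* and 1.0 times as many for *Igf2*, beside 0.888 for all reads.

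Other values moved with dose in these libraries. The summed brainstem and spinal cord markers lay between 7.31 and 63.3 CPM in the controls and between 65.0 and 159 CPM in the exposed pups, without overlap, and 6 of its 7 genes had an unadjusted p under 0.05. The meningeal markers summed to between 473 and 662 CPM in the controls and between 553 and 648 CPM in the exposed pups, and 1 of the 8 had an unadjusted p under 0.05. That one is *Slc6a13*, a GABA transporter of the meninges, at 29.4 ± 3.00 CPM in the controls and 36.8 ± 2.86 CPM in the exposed pups (SD, n = 4). Brain vessel markers lay between 308 and 391 CPM and between 367 and 444 CPM, with 2 of 8 at that level, and choroid plexus markers between 459 and 1212 CPM and between 357 and 807 CPM, with 0 of 6. Of all genes, 3.75% had an unadjusted p under 0.05 (edgeR). All 8 vessel genes and 7 of the 8 meningeal genes had a positive log2 fold change. Of the 6 choroid plexus genes, 5 had a negative one. With the brainstem and spinal cord level as a covariate, the log2 fold change was 0.17 for *Igf2* (edgeR unadjusted p = 0.0885), -0.26 for *Mest* (0.0335), -0.38 for *Plagl1* (0.0132) and 0.36 for *Kcnq1ot1* (0.0566), beside 0.03 for *H19*, and the adjusted p of each of these 5 was 1. In that fit 16 of the 43 members had an unadjusted p under 0.05, beside 3.85% of all genes. None of the 43 passed the adjusted threshold (edgeR, lowest adjusted p = 0.888). Because the brainstem and spinal cord level does not overlap between the doses, it and the dose cannot be told apart. The part of the meningeal, vessel and choroid plexus levels, and of the hypothalamic level given below, in the dose differences of these 5 members was not tested. In bulk tissue, fewer cells of a type and less RNA per cell cannot be told apart.

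Over the 8 libraries the log2 CPM of *Igf2* and the log2 summed meningeal level had a Pearson r of 0.42 (exact permutation p = 0.302, adjusted 0.302 over 3 relations) and a Spearman rho of 0.26 (exact permutation p = 0.536, adjusted 0.536). *H19* gave r = 0.43 (exact permutation p = 0.296, adjusted 0.302) and rho = 0.64 (exact permutation p = 0.0962, adjusted 0.144). Neither relation passed its test. Without the 2 libraries farthest from the median meningeal level, 0 ppm replicates 2 and 4, r was 0.68 for *H19* and -0.0043 for *Igf2*. With the median of the list in place of its sum, r for *Igf2* was 0.87 (exact permutation p = 0.00702), so this value depends on how the list is summarized.

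By the allele known to be expressed, the 22 paternally expressed members tested had a median log2 fold change of -0.06, with 9 above and 13 below 0. The 12 maternally expressed members had a median of 0.06, with 7 above and 5 below 0. The 9 members with isoform- or tissue-dependent imprinting had a median of -0.01. Over all 23113 genes 11318 were above and 11795 below 0.

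*Igf2r* encodes the receptor that clears *Igf2* protein and was listed here as maternally expressed, which may not hold in every cell type of the brain. Its level was 71.3, 60.2, 67.8 and 64.9 CPM in the controls and 59.0, 54.3, 67.4 and 63.7 CPM in the exposed pups. *Airn*, the paternally expressed antisense RNA that silences *Igf2r*, was at 6.93, 5.99, 7.02 and 7.55 CPM in the controls and at 9.12, 6.04, 7.92 and 8.25 CPM in the exposed pups. Both overlapped between the doses. *Grb10*, an adaptor that restrains insulin and growth factor receptors, lay between 102 and 122 CPM in all 8 libraries.

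In the *Kcnq1ot1* cluster the 4 members tested had positive log2 fold changes, from 0.10 to 0.36, but those of *Cdkn1c* and *Phlda2* changed sign when single libraries were left out. *Cdkn1c*, a maternally expressed inhibitor of the cell cycle, was at 48.9, 57.4, 77.0 and 68.3 CPM in the controls and at 59.0, 58.8, 84.2 and 68.6 CPM in the exposed pups. *Slc22a18*, a maternally expressed transporter, had 4 to 24 counts per library and *Phlda2*, a maternally expressed regulator of placental growth, 0 to 4, so for these a difference was not detectable at this depth.

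The *Peg3* cluster holds a pair of divergent paternally expressed genes. *Peg3*, a zinc finger protein, was at 260, 276, 395 and 379 CPM in the controls and at 292, 315, 300 and 337 CPM in the exposed pups. *Usp29*, a deubiquitinase gene, was at 124, 125, 173 and 161 CPM in the controls and at 125, 151, 145 and 151 CPM in the exposed pups. In both genes 0 ppm replicates 1 and 2 were below 0 ppm replicates 3 and 4, and the exposed libraries lay within the range of the controls.

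The sequence between their starts is shown because the genes face away from each other across it and varied alike. It spans chr7:6730432-6730577 of GRCm38.p6 (146 bases, RefSeq promoter windows, plus strand), upstream of both genes, with the letters CCAAT in capitals on either strand.
Peg3 and Usp29 interval: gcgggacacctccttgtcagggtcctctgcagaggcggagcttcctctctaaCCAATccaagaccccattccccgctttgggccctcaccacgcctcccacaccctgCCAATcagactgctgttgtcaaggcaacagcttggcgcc
CCAAT occurs 2 times, both on the plus strand. Of 27025 genes with a RefSeq window of 300 bases, 41.1% held CCAAT on either strand and 13.3% held it at least 2 times, and of the 39 members with a window 38.5% held it.

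The hexamer TGCCGC, the core of the site bound by ZFP57 at methylated imprinting control regions, was sought on both strands in the same windows. It occurred in 15 of the 39 members with a window (38.5%) and in 13.1% of the 27025 genes. This description takes no account of base composition or of the several windows that some genes have. *Snrpn* and *Snurf* are both counted through the same window. *Mest* held 2 copies upstream of a start within the gene, and its upstream bases are shown because *Mest* had the lowest unadjusted p of the members. They span chr6:30737800-30738049 of GRCm38.p6 (250 bases, plus strand, no annotated exon), with TGCCGC or its complement in capitals, and 62.4% are G or C.
Mest upstream: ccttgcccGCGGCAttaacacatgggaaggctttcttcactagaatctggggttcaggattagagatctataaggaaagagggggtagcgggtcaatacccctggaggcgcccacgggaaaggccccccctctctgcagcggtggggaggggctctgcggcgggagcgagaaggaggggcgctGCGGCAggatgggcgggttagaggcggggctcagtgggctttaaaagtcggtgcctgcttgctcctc

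*Zim1*, a maternally expressed zinc finger gene next to *Peg3*, was at 51.4, 37.1, 66.9 and 62.5 CPM in the controls and at 53.1, 61.5, 58.6 and 49.7 CPM in the exposed pups. The ratio of *Zim1* to *Peg3* lay between 0.134 and 0.198 at 0 ppm and between 0.148 and 0.195 at 50 ppm.

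The spread between pups of 1 dose was large for many members. The SD of log2 CPM within dose, pooled over both doses, had a median of 0.20 over the 40 members with at least 1 CPM and of 0.14 over the 14602 genes at that level. Of the 40 members, 26 were above the median and 18 (45.0%) were above the upper quartile of all genes, 0.22. *Rtl1*, *Meg3*, *Calcr*, *Dlk1* and *Asb4* had the largest spread, and *H13* the smallest, at 0.05.

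**Figure D3:**
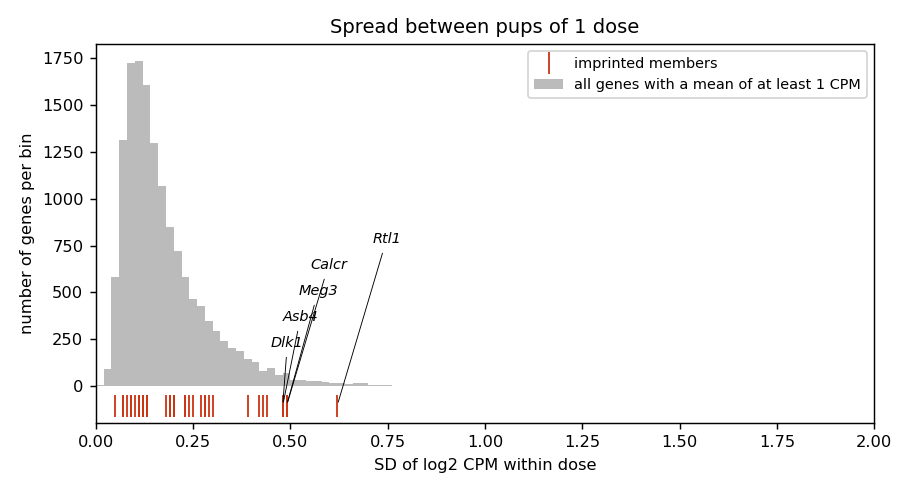
Distribution of the SD of log2 CPM within dose over all genes with a mean of at least 1 CPM (grey bars), with 1 red mark under the axis for each of the 40 members at that level and the 5 most variable named. *Rtl1* stands at 0.62 and the next 4 at 0.48 to 0.49, and 6 genes with an SD above 2 lie beyond the plotted range.

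*Rtl1*, a retrotransposon-derived paternally expressed gene of the *Dlk1-Dio3* cluster, was at 1.16, 1.56, 3.79 and 2.28 CPM in the controls and at 1.30, 2.81, 1.75 and 2.69 CPM in the exposed pups. These values rest on 34 to 116 counts per library, and 0.849% of genes had a larger spread. *Dlk1*, a paternally expressed transmembrane inhibitor of differentiation, was at 12.5, 21, 36.1 and 24.4 CPM in the controls and at 17.2, 21.1, 22.6 and 26.7 CPM in the exposed pups. In both genes 0 ppm replicate 1 was the lowest library of the 8 and 0 ppm replicate 3 the highest.

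*Calcr*, a maternally expressed receptor for calcitonin found in the hypothalamus and brainstem, was at 8.57, 8.04, 17.9 and 16.4 CPM in the controls and at 7.89, 12.5, 11.1 and 13.8 CPM in the exposed pups. *Asb4*, another maternally expressed gene of the *Peg10-Sgce* cluster, known from hypothalamic neurons, was at 12.2, 15.3, 28.6 and 25.9 CPM in the controls and at 12.8, 20.4, 18.3 and 22.1 CPM in the exposed pups. For both, 0 ppm replicates 3 and 4 were the highest of the 8 libraries. *Peg10*, a retrotransposon-derived paternally expressed gene of the same cluster, spanned 101 to 233 CPM with its highest values in the same replicates.

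The spread was not shared by the whole *Peg10-Sgce* cluster. *Sgce*, a sarcoglycan gene that starts beside *Peg10* and is also paternally expressed, lay between 25.7 and 31.1 CPM, with a 1.21-fold range over the 8 libraries beside 2.3-fold for *Peg10*. *Ppp1r9a*, a neuronal actin-binding protein, had a 1.23-fold range.

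The libraries differed in how many members lay above the mean of their dose. Among the 40 members it was 7 in 0 ppm replicate 1, 6 in replicate 2 and 36 each in replicates 3 and 4, while between 50.2% and 51.4% of all genes at 1 CPM or more lay above it in those libraries. In 50 ppm replicates 1 to 4 it was 11, 24, 17 and 31 of the 40. Paternally expressed *Magel2* (16.4, 20.3, 35.8 and 34.5 CPM in the controls), a gene of the Prader-Willi region active in the hypothalamus, and *Nap1l5* (129, 160, 235 and 214 CPM in the controls), a nucleosome assembly family gene, had the same order of controls, with replicates 3 and 4 above replicates 1 and 2.

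**Figure D4:**
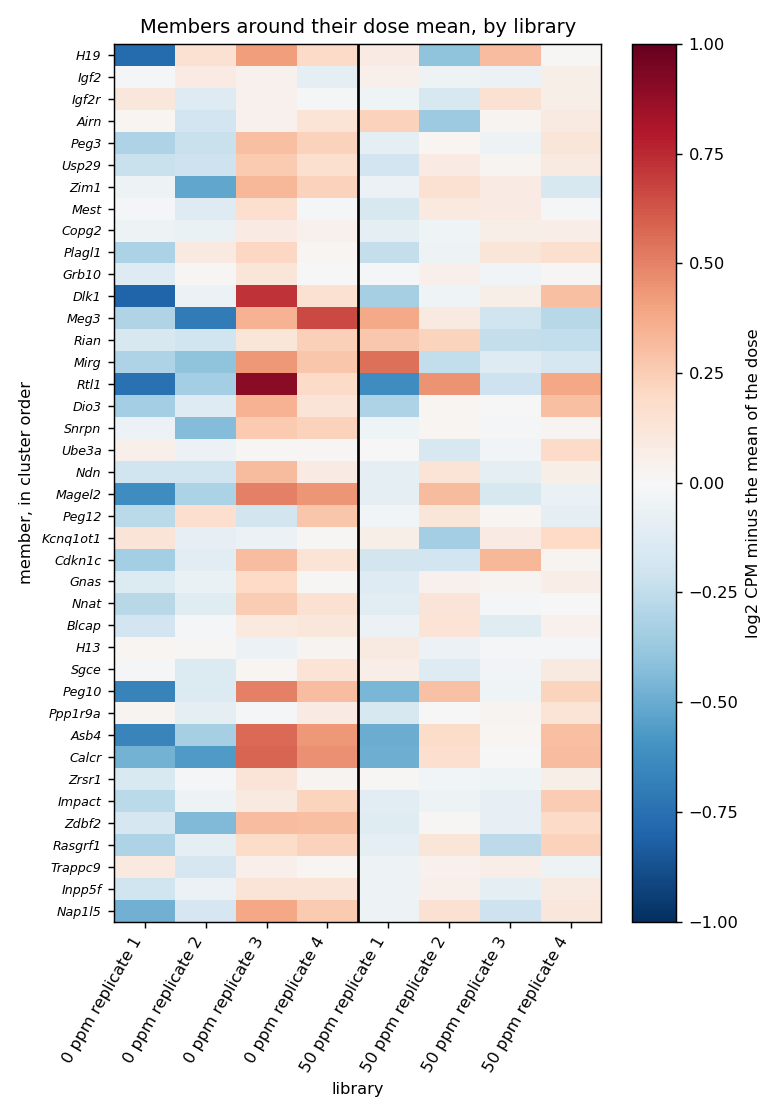
Log2 CPM minus the mean of the dose for 40 members (rows, in cluster order) in the 8 libraries (columns), red above and blue below the mean. In the controls 36 of 40 members are above the mean in replicates 3 and 4 and at most 7 in replicates 1 and 2, while in the exposed libraries the number lies between 11 and 31.

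The hypothalamic markers followed a similar order. Their sum was 34.0, 37.3, 81.6 and 71.4 CPM in 0 ppm replicates 1 to 4 and 33.4, 56.6, 35.5 and 43.9 CPM in 50 ppm replicates 1 to 4. All 11 were tested, none is at 0 in all libraries, and all 11 had a negative log2 fold change (50 ppm over 0 ppm), with a median of -0.34. *Pmch*, the precursor of a hypothalamic feeding peptide, was the only one with an unadjusted p under 0.05 (6.03 ± 2.71 CPM in the controls and 3.01 ± 1.10 CPM in the exposed pups, SD, n = 4). That is 9.09% of the list, beside 3.75% of all genes. Brainstem and spinal cord markers were also higher in 0 ppm replicates 3 and 4 (54.6 and 63.3 CPM) than in replicates 1 and 2 (7.31 and 14.7 CPM). The part of the sampled brain regions in the spread of the members was not tested.

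The maternally expressed RNAs of the *Dlk1-Dio3* cluster had the same split of the controls, with replicates 3 and 4 above replicates 1 and 2. Among the exposed libraries they were highest in 50 ppm replicate 1. *Meg3*, a long non-coding RNA that keeps the paternal genes of the cluster silent on the maternal copy, was at 402, 304, 633 and 781 CPM in the controls and at 757, 619, 507 and 479 CPM in the exposed pups, so its 3 highest libraries were 0 ppm replicates 3 and 4 and 50 ppm replicate 1. *Rian*, which hosts small RNAs, lay between 505 and 735 CPM, and *Mirg*, a host of microRNAs, between 6.06 and 12.5 CPM. Within the annotated spans, 14 hairpins lie in *Mirg*, 3 in *Rian* and 1 in *Meg3*.

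*Meg3* followed the nuclear long non-coding RNAs. The sum of *Malat1*, *Neat1*, *Xist*, *Miat* and *Snhg11* was 945, 824, 1138 and 1589 CPM in the controls and 1489, 1108, 1064 and 907 CPM in the exposed pups. Over the 8 libraries r was 0.92 (exact permutation p = 0.00134, adjusted 0.00402 over 3 relations) and rho 0.98 (exact permutation p = 0.000397, adjusted 0.00119). Without the 2 libraries farthest from the median, 0 ppm replicate 4 and 50 ppm replicate 1, r was 0.93 (exact permutation p = 0.00556, n = 6). Within a dose there are 4 libraries, too few for a correlation of their own, and what the libraries share in handling or region was not tested.

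**Figure D5:**
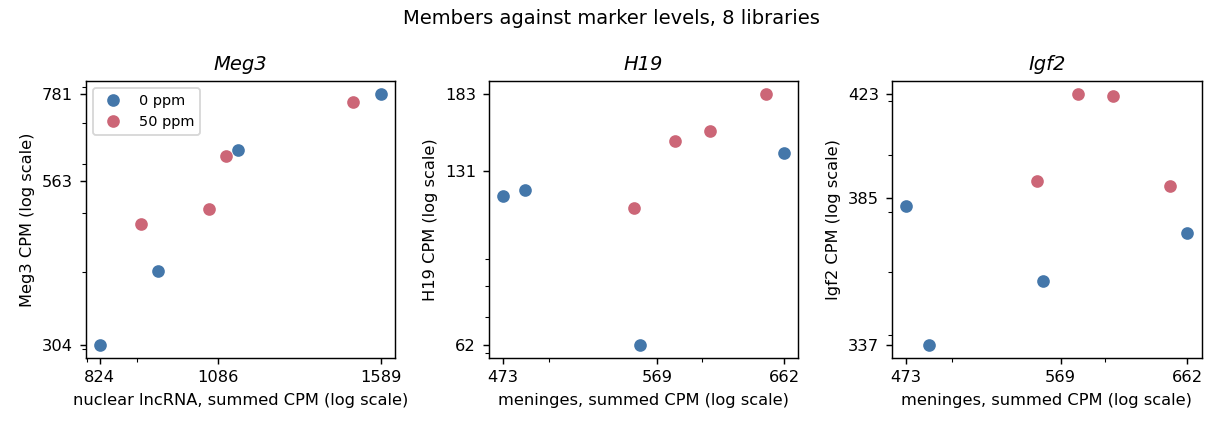
CPM of *Meg3*, *H19* and *Igf2* against the summed CPM of marker genes in the 8 libraries, both axes on a log scale, with 0 ppm in blue and 50 ppm in red. *Meg3* rises with the nuclear long non-coding RNAs from 304 to 781 CPM with both doses along the same line, while *H19* and *Igf2* show no such line with the meningeal markers.

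Opposite *Rtl1* on the maternal copy lie microRNAs that are fully complementary to it and are known to cut its RNA. The table of RefSeq places 6 hairpins on the strand opposite to *Rtl1* within its span, and 3 of their mature forms are shown with the seed in capitals because *Rtl1* was the most variable member.
miR-127-3p (chromosome 12, 109592888 to 109592909, plus strand): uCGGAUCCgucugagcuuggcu
miR-434-3p (chromosome 12, 109594565 to 109594586, plus strand): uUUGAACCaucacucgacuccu
miR-136-5p (chromosome 12, 109595331 to 109595352, plus strand): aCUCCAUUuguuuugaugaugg
In the host *Mirg* only miR-453 and miR-496a-5p share a seed among the mature forms found in these hosts.
miR-453: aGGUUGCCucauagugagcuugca
miR-496a-5p: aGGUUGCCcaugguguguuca
*Dio3*, the deiodinase at the far end of the cluster that inactivates thyroid hormone, lay between 2.63 and 5.06 CPM and had the lowest log2 fold change of the members, -0.28 with a standard error of 0.19 (edgeR unadjusted p = 0.153).

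Ratios between neighbors of opposite imprint were set side by side without a test. *H19* to *Igf2* was 0.174, 0.309, 0.381 and 0.359 at 0 ppm and 0.37, 0.287, 0.472 and 0.352 at 50 ppm, with 0 ppm replicate 1 the lowest. *Meg3* to *Dlk1* spanned 14.5 to 32.1 at 0 ppm and 17.9 to 44.0 at 50 ppm, a 3.03-fold range over the libraries. *Airn* to *Igf2r* lay between 0.0972 and 0.116 at 0 ppm and between 0.111 and 0.154 at 50 ppm, and *Kcnq1ot1* to *Cdkn1c* between 0.142 and 0.256 and between 0.177 and 0.25. The doses overlapped for every ratio that could be formed.

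In the *Snrpn-Ube3a* cluster, deleted in Prader-Willi and Angelman syndromes, *Ube3a*, the ubiquitin ligase that neurons express from the maternal copy, was at 248, 229, 241 and 241 CPM in the controls and at 232, 207, 227 and 264 CPM in the exposed pups. Exons on the opposite strand, among them those of the antisense host *Snhg14*, cover 27.3% of its exon bases, and the strand setting of the counting is not given in the sources used here. *Snrpn*, a splicing factor gene, had 6.81 to 11.0 CPM, while *Gm38393*, which overlaps it on the same strand, had 32.8 to 43.2 CPM, so the level of *Snrpn* and its ratio to *Ube3a* (21.6 to 33.7) are uncertain, and how reads of the shared exons were assigned was not tested. *Ndn*, a paternally expressed neuronal growth suppressor, lay between 509 and 730 CPM and *Peg12* between 3.48 and 5.15 CPM.

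On the scale of CPM per kilobase of exon, over all 8 libraries, *Nnat* had the highest level of the members at 713, followed by *Ndn* at 156, *Nap1l5* at 103 and *Gnas* at 102. This order also rests on counts of the B genome alone. *Nnat*, a paternally expressed membrane proteolipid of developing neurons, was at 1108, 1235, 1604 and 1494 CPM in the controls and at 1156, 1359, 1231 and 1247 CPM in the exposed pups. *Blcap*, the gene in whose intron *Nnat* lies, was at 174, 196, 212 and 213 CPM in the controls and at 183, 209.5, 175 and 195 CPM in the exposed pups. Their ratio lay between 6.29 and 7.55, the narrowest range of the ratios at 1.2-fold. *Gnas*, which encodes the stimulatory G protein subunit, lay between 1029 and 1296 CPM.

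The remaining members showed small differences. *H13*, a signal peptide peptidase, was at 146, 146, 139 and 147 CPM in the controls and at 151, 135, 140 and 140 CPM in the exposed pups. *Trappc9*, a trafficking gene, lay between 87.7 and 105 CPM. *Zrsr1*, a splicing factor gene, lay between 24.4 and 29.5 CPM, and *Commd1*, in whose intron it lies, had 1 to 8 counts per library, so no ratio was formed. *Zdbf2* lay between 84.3 and 142 CPM with a log2 fold change of -0.21 (SE 0.13), and *Rasgrf1*, an exchange factor for Ras in neurons, between 21.7 and 36.1 CPM with 0.19 (SE 0.12). *Impact*, a translation regulator, lay between 65.9 and 100.3 CPM, and *Inpp5f*, a phosphatase, between 516 and 652 CPM.

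Related genes that are no members were counted in the same fit. Of 33 other imprinted genes or cluster neighbors tested, none passed the adjusted threshold (edgeR). An unadjusted p under 0.05 was found for 3 of them (9.09%), beside 3.75% of all genes. *Kcnk9* (log2 fold change 0.35) and *Ins2* (1.18) were higher and *Klf14* (-0.75) was lower. *Ins2* was at 0.196 and 0.455 CPM and *Klf14* at 0.856 and 0.512 CPM on average, so both rest on few counts. Of 16 imprint maintenance genes tested, 0 had an unadjusted p under 0.05 in either direction with edgeR. Their median log2 fold change was -0.07, with 2 above and 14 below 0, beside 11318 above and 11795 below over all genes.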

How the data were processed

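Whole newborn brains were sequenced as 8 libraries. The tables deposited by the authors hold unnormalized counts of reads for each gene, 1 table for each parental genome (GRCm38 release 87 and CAST/EiJ 1.86). According to the paper's methods and the submitters' processing notes, they checked reads with FastQC, trimmed initial bases, aligned with STAR, counted with HTSeq and tested with DESeq2. Tool versions, the strand setting and the counting mode are not given in the sources used here. The libraries were strand-specific and made from poly(A) RNA.

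Genes at 0 in more than 2/3 of the libraries were dropped. CPM are counts scaled by library size. Counts were normalized with TMM and tested with edgeR 4.0.16 (glmQLFit and glmQLFTest, treatment only, R 4.3.3), with Benjamini-Hochberg adjustment over all 23113 genes and a threshold of 0.05. The standard error is the absolute log2 fold change divided by the square root of F. Log2 CPM used a prior count of 2. Single values were also tested by exact two-sided permutation over the 70 labellings. DESeq2 1.42.0, other filters and size factors, edgeR's robust fit and each library left out were the alternatives. The code was tested on simulated data.

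Replicates are numbered in accession order. No 2 libraries of a dose agreed within sampling noise. The members and the marker lists were chosen with earlier results of these data known. Values per library are given for members with an unadjusted p under 0.05, the 5 most variable members with at least 1 CPM, members whose doses did not overlap and pairs of opposite imprint, and other members named with values were chosen after their values were seen. Symbols were found for 49326 of 49585 identifiers. Coordinates and exon lengths are from GENCODE M21 (GRCm38), not the release the authors counted with. In the C genome only the members paired with an identifier by the study's supplement were used. Columns of the authors' own tests in that supplement were not used. The precision of a value is limited by depth only for members with few counts.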

Additional observations from a re-analysis of the deposited data

Results flagged for a closer look

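In 4 of the 86 sets of 4 libraries (43 members at 2 doses), 1 library lay far from the other 3 by Dixon's criterion, and chance alone gives about 5% of sets. *Mirg* was at 12.5 CPM in 50 ppm replicate 1, with the other exposed libraries between 7.16 and 7.81 CPM. *Magel2* was at 30.1 CPM in 50 ppm replicate 2, with the others between 21.6 and 22.9 CPM. *H13* was at 139 CPM in 0 ppm replicate 3, with the other controls between 146 and 147 CPM, a distance of few percent in the member with the smallest spread. *Impact* was at 100.3 CPM in 50 ppm replicate 4, with the others between 78.1 and 81.5 CPM.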

How the results depend on the processing

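Of the log2 fold changes of single members recomputed under other tools, filters and scalings or with 1 library left out, 505 kept their direction and their side of the adjusted threshold and 54 changed sign, each of them when 1 library was left out. No alternative brought a member past the adjusted threshold, and the number called was 0 in each, beside 1 to 52 of all genes. The number with an unadjusted p under 0.05 was 4 to 7 under the other tools, filters and size factors, beside 2.81% to 3.75% of all genes. With 1 library left out it was 2 to 6, beside 3.2% to 5.08% of all genes. The number was 3 without 0 ppm replicate 3 and 2 without 50 ppm replicate 1 or 50 ppm replicate 4. With the brainstem and spinal cord level as a covariate, an alternative chosen after the data were seen and a level that does not overlap between the doses, it was 16, beside 3.85% of all genes, and *H19* (log2 fold change 0.03), *Igf2* (0.17) and *Kcnq1ot1* (0.36) were not among them. The 16 were *Peg3*, *Mest*, *Plagl1*, *Dlk1*, *Meg3*, *Rian*, *Mirg*, *Dio3*, *Ndn*, *Magel2*, *Nnat*, *Peg10*, *Asb4*, *Calcr*, *Zdbf2* and *Nap1l5*. Over the 13 or 14 settings without that covariate *H19* lay between 0.24 and 0.58, *Igf2* between 0.13 and 0.19, *Mest* between -0.27 and -0.17, *Plagl1* between -0.35 and -0.18 and *Kcnq1ot1* between 0.25 and 0.42. One member had doses without overlap under both other scalings, as reported. The correlation of *Igf2* with the meningeal level was 0.87 with the median of the list and -0.0043 without the 2 farthest libraries. The ranges of the members that changed sign, with each library left out in turn, were *Peg3* -0.17 to 0.03, *Usp29* -0.10 to 0.07, *Zim1* -0.11 to 0.15, *Dlk1* -0.31 to 0.18, *Meg3* -0.04 to 0.40, *Rian* -0.14 to 0.03, *Mirg* -0.13 to 0.25, *Rtl1* -0.27 to 0.36, *Snrpn* -0.10 to 0.11, *Ube3a* -0.11 to 0.01, *Ndn* -0.14 to 0.04, *Magel2* -0.31 to 0.04, *Cdkn1c* -0.01 to 0.22, *Phlda2* -0.35 to 0.78, *Gnas* -0.02 to 0.09, *Sgce* -0.04 to 0.05, *Ppp1r9a* -0.01 to 0.09, *Asb4* -0.34 to 0.05, *Calcr* -0.34 to 0.04, *Zrsr1* -0.03 to 0.06, *Commd1* -0.99 to 0.14, *Impact* -0.00 to 0.16, *Trappc9* -0.06 to 0.02, *Inpp5f* -0.06 to 0.05, *Nap1l5* -0.06 to 0.22. The cause of these changes was not tested. No paired analysis was possible because the labels give no replicate number that the doses share and each pup came from a different litter. Few counts limit *Phlda2*, *Commd1* and *Slc22a18*, and the reason for their low counts was not tested.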
